A study of Homo sapiens with 6 samples.

Results

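Open chromatin was examined at the start sites of 10 genes of the replication fork and its checkpoint in K562, an established human leukaemia line. The genes were TOP1, ATR, CHEK1, WEE1, RPA1, RPA2, MCM3, CDC45, CDT1 and TIMELESS. They were chosen by name, with earlier results of these data known. An interval of a peak list was assigned to a gene when it lay within 2 kb of a given hg19 start site. Of the 10 start sites, 9 had an interval in at least 1 of the 6 lists, against 17466 merged regions in all. The assay was ATAC-seq, which reads open DNA through the cuts a transposase makes in it. The 3 cell lines carried a vector control, overexpressed wild-type SLFN11 or overexpressed SLFN11 with the E669Q substitution. Each was kept in DMSO or given 1000 nM camptothecin (CPT) for 4 h, so that 6 groups of 1 library were compared and no difference has a replicate check. The labels do not say whether a line was 1 clone or which promoter drove the transgene. They give the cell type as lymphoblast, and marker genes of K562 were not analysed here for lack of hg19 positions.

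Before S phase, CDT1 helps load the MCM helicase, of which MCM3 is a subunit, onto origins. CDC45 then joins MCM and GINS to form the active helicase, and TIMELESS travels with the fork and stabilises it. TOP1 relieves torsion ahead of the fork and is trapped on DNA by CPT, which stalls replication. RPA1 and RPA2 are subunits of RPA, which coats exposed single-stranded DNA and recruits the kinase ATR. ATR activates CHEK1, and WEE1 restrains entry into mitosis by phosphorylating cyclin-dependent kinases. SLFN11 is a Schlafen-family protein recruited to RPA-coated stressed forks, and E669Q lies in its ATPase domain.

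The upstream sequences of 6 of these genes are printed to show the bases next to the starts. The windows and the intervals overlap only in part, since those of TIMELESS lie almost wholly downstream and those of CDC45 reach farther upstream. MCM3, CDC45 and ATR had intervals over the start in most libraries, and RPA1 and TIMELESS differed most in presence. TOP1 is the target of the drug and was added after its values were seen. They are the 250 bases before the start in RefSeq, GRCh38.p14, 5′ to 3′ on the gene's strand, which is another build than the peak lists and was not converted. Capitals mark matches on either strand to an E2F-type motif (TTTCCCGC, TTTCGCGC, TTTGGCGC or TTTGGCGG), the CCAAT box (CCAAT), the GC box (GGGCGG) and the E-box (CACGTG). These spellings were chosen after the sequences had been seen. Of 35116 such windows in the table, 2.83% held an E2F-type match, 32.0% a CCAAT box, 42.6% a GC box and 6.34% an E-box.
MCM3, chr6:52284743-52284992, minus strand: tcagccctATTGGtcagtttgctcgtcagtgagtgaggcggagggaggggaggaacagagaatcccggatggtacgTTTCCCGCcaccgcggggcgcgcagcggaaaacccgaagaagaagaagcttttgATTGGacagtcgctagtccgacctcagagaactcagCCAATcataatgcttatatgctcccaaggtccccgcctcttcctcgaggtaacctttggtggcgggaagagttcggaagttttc
CDC45, chr22:19479670-19479919, plus strand, the first of 3 listed starts: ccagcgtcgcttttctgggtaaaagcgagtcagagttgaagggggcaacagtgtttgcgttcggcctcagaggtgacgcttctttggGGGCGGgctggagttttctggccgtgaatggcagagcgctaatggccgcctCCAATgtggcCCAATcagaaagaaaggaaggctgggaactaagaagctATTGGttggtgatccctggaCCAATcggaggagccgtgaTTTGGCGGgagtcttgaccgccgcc
TIMELESS, chr12:56449427-56449676, minus strand: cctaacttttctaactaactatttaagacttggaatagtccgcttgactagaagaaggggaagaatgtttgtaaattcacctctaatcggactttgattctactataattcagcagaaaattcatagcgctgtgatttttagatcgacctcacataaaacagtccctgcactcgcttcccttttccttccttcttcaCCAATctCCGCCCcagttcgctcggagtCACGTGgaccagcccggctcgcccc
TOP1, chr20:41028572-41028821, plus strand: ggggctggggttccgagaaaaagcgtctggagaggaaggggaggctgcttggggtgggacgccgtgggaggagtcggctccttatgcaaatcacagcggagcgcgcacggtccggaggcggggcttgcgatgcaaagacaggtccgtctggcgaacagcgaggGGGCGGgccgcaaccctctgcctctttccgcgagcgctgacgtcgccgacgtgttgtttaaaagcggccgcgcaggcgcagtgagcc
RPA1, chr17:1829755-1830004, plus strand: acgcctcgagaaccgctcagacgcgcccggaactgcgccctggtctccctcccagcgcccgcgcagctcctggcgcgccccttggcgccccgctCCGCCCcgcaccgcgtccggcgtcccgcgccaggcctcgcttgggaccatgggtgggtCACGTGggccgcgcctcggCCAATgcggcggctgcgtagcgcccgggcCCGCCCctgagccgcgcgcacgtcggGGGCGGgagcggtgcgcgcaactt
ATR, chr3:142578734-142578983, minus strand: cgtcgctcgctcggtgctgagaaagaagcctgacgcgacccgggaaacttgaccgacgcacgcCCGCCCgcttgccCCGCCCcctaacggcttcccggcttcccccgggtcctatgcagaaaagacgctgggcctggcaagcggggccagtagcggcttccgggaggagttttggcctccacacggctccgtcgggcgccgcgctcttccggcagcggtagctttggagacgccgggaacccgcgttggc
The MCM3 window held 3 CCAAT boxes and 1 E2F-type match, and the printed CDC45 window held 4 CCAAT boxes, 1 E2F-type match and 1 GC box. The windows of the other listed CDC45 starts held no E2F-type match. That at chr22:19479216-19479465 held none of the motifs, and that at chr22:19479576-19479825 held 2 CCAAT boxes and 2 GC boxes. The TIMELESS window held 1 E-box, 1 CCAAT box and 1 GC box, and the RPA1 window 1 E-box, 1 CCAAT box and 3 GC boxes. The TOP1 window held 1 GC box and the ATR window 2. No E2F-type spelling was found in the TOP1, RPA1, ATR and TIMELESS windows. The CDT1 window, at chr16:88803539-88803788 on the plus strand, held 2 E2F-type matches and 1 GC box. G and C made up 55.6% of the MCM3 window, 57.2% of CDC45, 45.2% of TIMELESS, 66.8% of TOP1, 78.8% of RPA1 and 69.6% of ATR, against a median of 58.0%. SMYD4, on the opposite strand, has a start window that overlaps that of RPA1, and a noncoding locus, LOC118567325, has one that overlaps those of CHEK1. The table held 8 of the 10 genes, and WEE1 and RPA2 were without an entry.

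The lists held 5246 to 12337 intervals per library and depth differed. Depth relative to the vector library with DMSO was 1.09 for its CPT partner, 1.72 and 1.09 for the wild-type SLFN11 libraries with DMSO and CPT, and 1.33 and 2.22 for those of E669Q. The summit pileup is the number of fragments over a peak's highest point. It and the local background were recovered from the authors' fold and p-value. Fold is the authors' enrichment at a summit over local background, and q is given as −log10 q. Intervals on pileups below are exact 95% Poisson intervals, which cover counting error only.

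MCM3, CDC45, TOP1 and WEE1 had an interval in all 6 libraries, RPA2 in 5, ATR, CHEK1 and RPA1 in 4, TIMELESS in 2 and CDT1 in none. Of all merged regions, 12.3% were in all 6 lists. By library, 7 of the 10 start sites were listed in vector with DMSO, where 29.7% of all merged regions were listed. Adding CPT to this line left 5, against 32.7% of regions. For wild-type SLFN11 it was 9 with DMSO, against 65.7%, and 8 with CPT, against 31.4%. In E669Q it was 7 with DMSO, against 46.9%, and 7 with CPT, against 69.2%. Merged regions are by construction listed somewhere and are mostly not start sites, so these shares are a background for the libraries and not for promoters. Against their own list, the strength of the listed start sites differed by library. Their median pileup was 8 against 8 for all intervals of the list in vector with DMSO and 8 against 9 with CPT. For wild-type SLFN11 it was 12 against 11 with DMSO and 8.5 against 9 with CPT, and for E669Q 9 against 9 and 14 against 11. Their median fold was 5.73 against 6.03 with DMSO and 5.42 against 6.13 with CPT in vector. It was 7.09 against 6.17 and 5.74 against 5.91 in wild-type SLFN11, and 5.81 against 6.08 and 7.28 against 6.05 in E669Q.

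**Figure D1:**
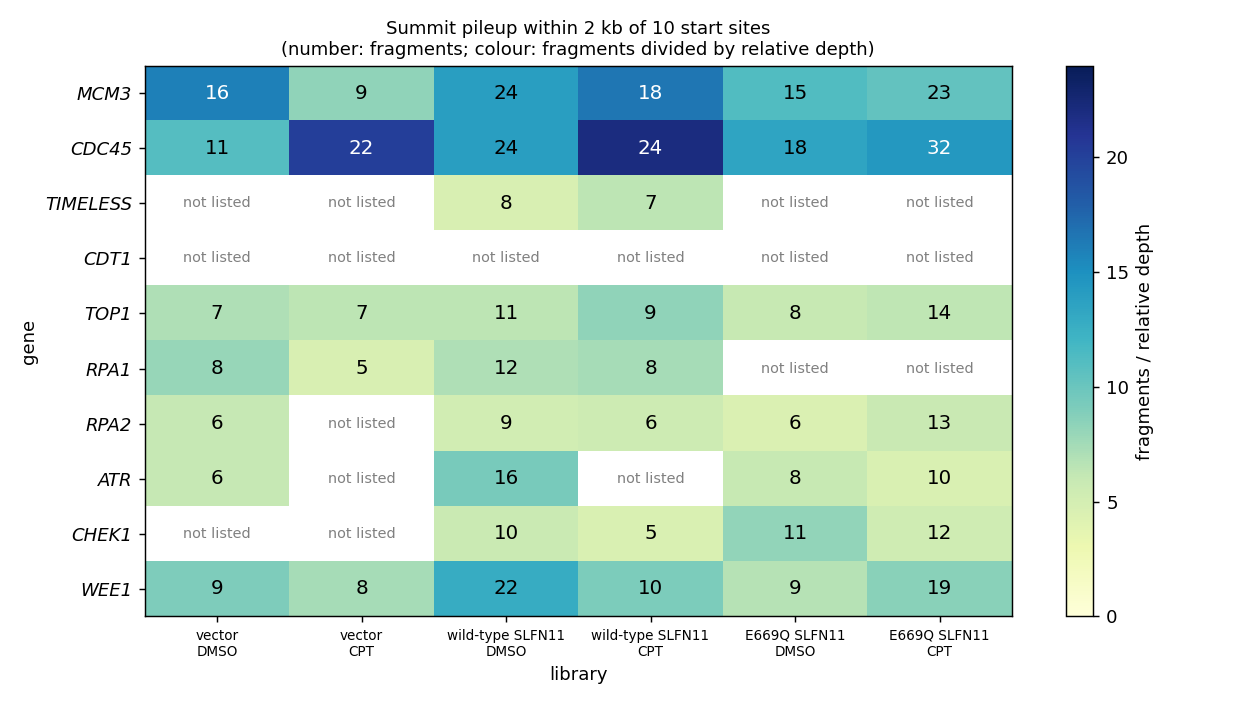
Summit pileup at the 10 start sites (rows) in the 6 libraries (columns), with the number of fragments in each tile and the colour giving fragments divided by relative depth. CDC45 and MCM3 are the darkest rows, CDT1 is empty, RPA1 is empty in the E669Q libraries and TIMELESS is filled in the wild-type SLFN11 libraries alone.

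Of the helicase genes, MCM3 had the highest authors' fold of the 10 genes in 5 of the 6 libraries. Its fold was 9.37 with DMSO and 5.78 with CPT in vector, 10.2 and 9.53 in wild-type SLFN11, and 7.72 and 9.26 in E669Q. The −log10 q was 11.8 and 4.45, 17.3 and 12.9, and 9.07 and 15.3 in the same order. Its pileup was 16 fragments with DMSO (95% interval 9.15 to 26.0) and 9 with CPT (4.12 to 17.1) in vector. It was 24 (15.4 to 35.7) and 18 (10.7 to 28.4) in wild-type SLFN11, and 15 (8.40 to 24.7) and 23 (14.6 to 34.5) in E669Q. The vector library with CPT was the low one, where the MCM3 fold was above 40.3% of the list, against 83.2% to 96.7% in the other 5. A stretch of 269 bp, chr6:52149570-52149838, was inside an interval in all 6, from -256 to 12 bp relative to the start, where negative positions are upstream. The highest summits lay between -191 and -73 bp. E669Q with CPT alone had a second, separate MCM3 interval 311 to 502 bp downstream, with a fold of 3.87 and a pileup of 9.

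CDC45 was the start site with most fragments in 4 of the 6 libraries, equal to MCM3 in wild-type SLFN11 with DMSO and below it in vector with DMSO. Its highest summit held 11 fragments (5.49 to 19.7) with DMSO and 22 (13.8 to 33.3) with CPT in vector. It held 24 (15.4 to 35.7) with DMSO and 24 (15.4 to 35.7) with CPT in wild-type SLFN11, at unequal depth. In E669Q it held 18 (10.7 to 28.4) with DMSO and 32 (21.9 to 45.2) with CPT. The authors' fold at these summits was 5.73 and 8.77, 7.09 and 8.15, and 6.82 and 7.45, with a −log10 q of 4.78 to 16.3. Every CDC45 interval held 2 or 3 summits, and the intervals were 381 to 765 bp wide. The 192 bp shared by all 6, chr22:19467209-19467400, ran from -244 to -53 bp. In vector the highest summit was the upstream one, at -484 bp with DMSO and -382 bp with CPT, and in the SLFN11 lines it lay between -168 and -42 bp.

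For CDT1, the licensing factor, no interval lay within 5 kb of the start in any library. The nearest was 8201 bp away in wild-type SLFN11 with DMSO, 7910 bp away with CPT in that line and 8194 bp away in E669Q with CPT, each downstream. In the other 3 libraries it was 97270 to 233249 bp away. As a list holds only what passed the caller's threshold, this sets no upper limit on accessibility there.

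TIMELESS, the fork stabiliser, was listed in the wild-type SLFN11 libraries alone. Its pileup was 8 fragments with DMSO (3.45 to 15.8) and 7 with CPT (2.81 to 14.4), its fold 6.43 and 6.24 and its −log10 q 5.83 and 5.16. Both intervals covered the start, and 273 bp, chr12:56842932-56843204, were common to them, from -17 to 255 bp. Over all merged regions, 143 of 17466, or 0.819%, were listed in both wild-type SLFN11 libraries and in no other. This pattern was read from TIMELESS itself, so its share is no test. In the unlisted libraries the nearest interval was 88938 to 187483 bp from the start. Carried to the depth of E669Q with CPT, the wild-type SLFN11 pileups at TIMELESS would come to 10.3 to 14.2 fragments. Scaled by regions listed in all 6 libraries they would come to 8 to 12.7. The lowest pileup listed there at a like local background was 6. In vector with CPT the same sums gave 5.05 to 6.98 and 4.4 to 7 fragments against a lowest listed pileup of 5. Carried pileups, here and below, leave out counting error, and a site above the lowest listed pileup need not be listed.

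TOP1, the target of CPT, had an interval just upstream of its start in all 6 libraries. Its fold was above 9.83% of the list in vector with CPT and above 58.1% in E669Q with CPT. Its pileup was 7 fragments with DMSO (2.81 to 14.4) and 7 with CPT (2.81 to 14.4) in vector, 11 (5.49 to 19.7) and 9 (4.12 to 17.1) in wild-type SLFN11, and 8 (3.45 to 15.8) and 14 (7.65 to 23.5) in E669Q. Divided by relative depth these were 5.99 to 8.25, a range of 1.38 times over the 6 libraries. The authors' fold was 4.6 to 6.39 and the −log10 q 2.56 to 7.10, with the lowest in vector with CPT and the highest in E669Q with CPT. The 115 bp found in all 6 libraries, chr20:39657215-39657329, lay from -247 to -133 bp, and 1 library, E669Q with CPT, had an interval reaching over the start itself.

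RPA1, the large RPA subunit, was listed in the vector and wild-type SLFN11 libraries and in neither E669Q library. Its pileup was 8 fragments with DMSO (3.45 to 15.8) and 5 with CPT (1.62 to 11.7) in vector, and 12 (6.20 to 21.0) and 8 (3.45 to 15.8) in wild-type SLFN11. The fold was 6.98 and 4.63 in vector and 7.98 and 5.82 in wild-type SLFN11. The summits fell within 57 bp of each other, between -76 and -19 bp, and the 4 intervals shared chr17:1733189-1733260. In the E669Q libraries the nearest interval was 113373 bp away with DMSO and 113395 bp away with CPT. E669Q with CPT was the deepest library. At its depth the 4 pileups would come to 10.2 to 17.8 fragments, or 9.09 to 14.5 when scaled by regions listed in all 6 libraries, and the lowest pileup listed there at a like local background was 8. With DMSO the sum was 6.14 to 10.7 against a lowest of 7. This pattern of lists was read from RPA1 itself, so its share is no test. It was that of 21 of 17466 merged regions, or 0.120%, and 1905 merged regions were in exactly 4 lists.

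RPA2, another RPA subunit, was listed in all libraries but vector with CPT. Its pileup was 6 (2.2 to 13.1) in vector with DMSO, 9 (4.12 to 17.1) and 6 (2.2 to 13.1) in wild-type SLFN11 with DMSO and CPT, and 6 (2.2 to 13.1) and 13 (6.92 to 22.2) in E669Q. Divided by depth these were 4.50 to 6, the narrowest range of the 9 genes at 1.33 times. That range leaves out the library where RPA2 was unlisted, and the ranges rest on unlike numbers of libraries. All 5 intervals covered the start and shared 147 bp, chr1:28241181-28241327. In the unlisted library the other pileups would come to 4.89 to 6.52 fragments, and 6 was the lowest listed at a like background.

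ATR, the apical checkpoint kinase, was listed in 4 libraries and missing from vector and wild-type SLFN11 with CPT. Its pileup was 6 fragments (2.2 to 13.1) in vector with DMSO, 16 (9.15 to 26.0) in wild-type SLFN11 with DMSO, and 8 (3.45 to 15.8) and 10 (4.80 to 18.4) in E669Q with DMSO and CPT. The fold was 9.03 in wild-type SLFN11 with DMSO, above 91.2% of that list, and 4.91 to 5.94 in the other 3. All 4 intervals covered the start and shared 91 bp, chr3:142297632-142297722. At the depth of wild-type SLFN11 with CPT the 4 pileups would come to 4.91 to 10.1 fragments and at that of vector with CPT to 4.90 to 10.1, and in each the lowest listed at a like background was 6.

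CHEK1, the effector kinase, was listed in the 4 SLFN11 libraries and in neither vector library. The CHEK1 intervals did not lie in 1 place, so no single CHEK1 region had this pattern. Single regions in these 4 lists and in neither vector list made up 3.09%, or 540 of 17466, and that share is not matched to a count within 2 kb. In wild-type SLFN11 the interval was 998 to 1312 bp downstream of the given start with DMSO (10 fragments, 4.80 to 18.4; fold 5.96) and 234 to 393 bp downstream with CPT (5 fragments, 1.62 to 11.7; fold 4.35). In E669Q it was 517 to 948 bp downstream with DMSO (11 fragments, 5.49 to 19.7; fold 7.45) and 522 to 905 bp downstream with CPT (12 fragments, 6.20 to 21.0; fold 5.67). The E669Q intervals overlapped each other, and neither wild-type SLFN11 interval overlapped any other. None covered the given start. RefSeq lists 3 CHEK1 starts, which were not placed in hg19, so whether an interval covers another of them was not tested. In vector the 4 pileups would come to 4.58 to 8.24 fragments with DMSO and 4.98 to 8.96 with CPT, against a lowest listed of 6 and 7.

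WEE1, the mitotic inhibitor kinase, was listed in all 6 libraries. Its pileup was 9 (4.12 to 17.1) with DMSO and 8 (3.45 to 15.8) with CPT in vector, 22 (13.8 to 33.3) and 10 (4.80 to 18.4) in wild-type SLFN11, and 9 (4.12 to 17.1) and 19 (11.4 to 29.7) in E669Q. Wild-type SLFN11 with DMSO had the highest fold, 8.41, and E669Q with DMSO the lowest, 5.19 at its highest summit. Divided by depth the WEE1 pileup was 12.8 in wild-type SLFN11 with DMSO and 6.74 to 9.17 in the other 5. The 168 bp in all 6, chr11:9595013-9595180, lay from -215 to -48 bp of the start, counted along the chromosome. E669Q with DMSO had 2 separate intervals, on either side of the start, with 9 fragments each.

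**Figure D2:**
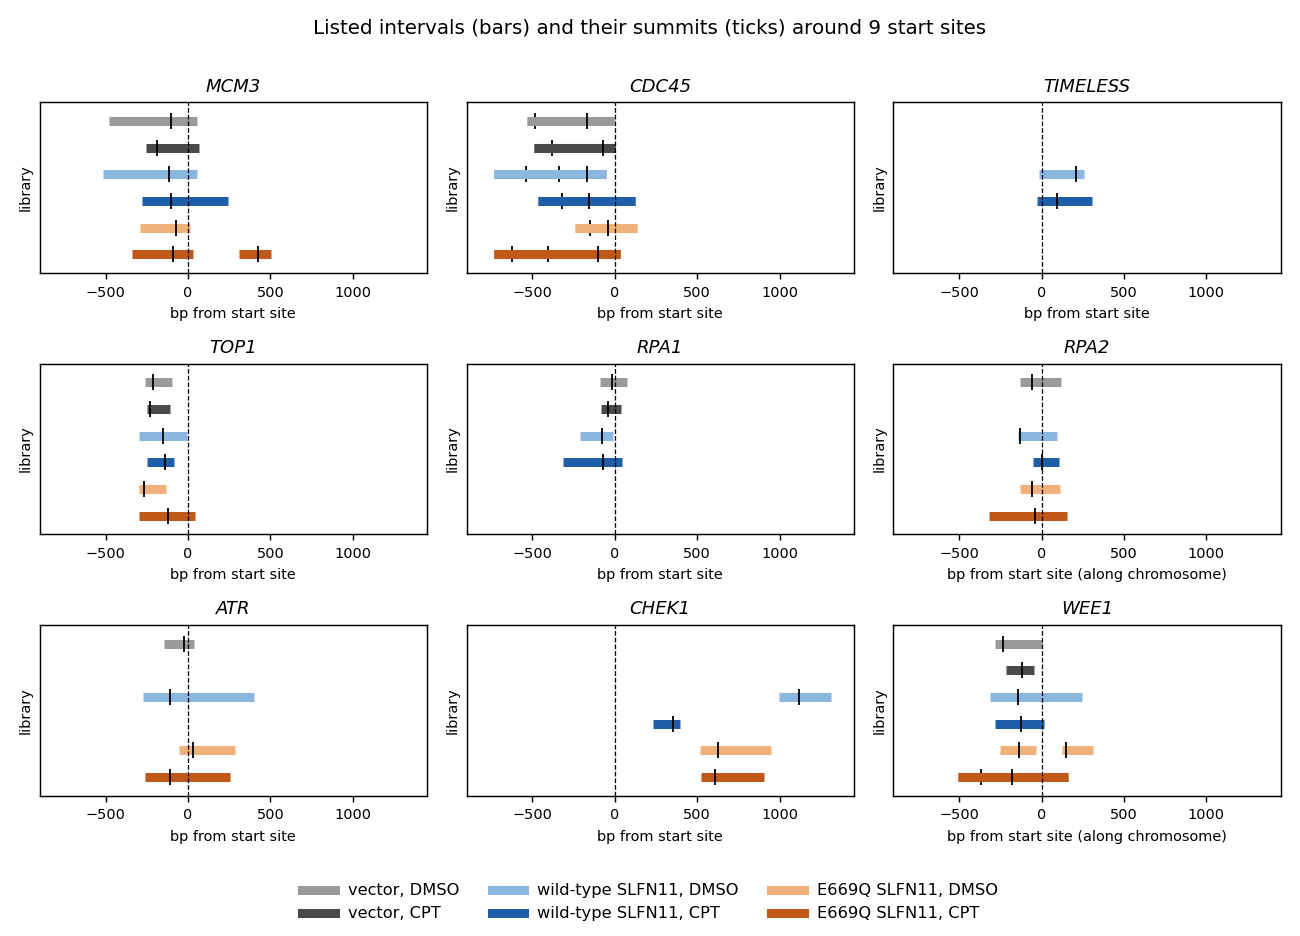
Intervals (bars, coloured by library) and summits (black ticks) by distance in bp from the start site, along the gene's strand except for WEE1 and RPA2, which are drawn along the chromosome. Most bars lie over or just before the start, except at CHEK1, where they lie 234 to 1312 bp downstream in 3 separate places.

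With CPT no start site was gained in any line. In vector ATR and RPA2 were listed with DMSO alone and 5 of 7 were kept. Of all regions in either vector list 25.4% were lost and 32.2% gained. In wild-type SLFN11 ATR alone was lost and 8 of 9 were kept, where 55.1% of all regions were lost and 6.16% gained. CHEK1 is counted as kept there although its intervals did not overlap. In E669Q all 7 were kept, where 10.8% of all regions were lost and 39.5% gained. With each list cut to its 5246 strongest intervals, 4 start sites were gained in wild-type SLFN11 and 3 in E669Q, so the absence of gains did not hold at equal list length. Shares of all regions were not computed for the cut lists.

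Among start sites listed at both treatments of a line, no difference in depth-scaled pileup with CPT was larger than counting error. ATR in wild-type SLFN11, and ATR and RPA2 in vector, were listed with DMSO alone and have no ratio. A fall that took a site off the list is thus not seen in the ratios. None of 20 CPT over DMSO ratios was past 2-fold and each exact 95% interval included 1. The CHEK1 ratio in wild-type SLFN11, 0.789, compares intervals that did not overlap, and it enters the median of that line. Of regions in both lists, 2.91% were past 2-fold in vector, 4.18% in wild-type SLFN11 and 5.19% in E669Q. The median ratio was 0.817 over 5 genes in vector, 1.12 over 8 in wild-type SLFN11 and 1.05 over 7 in E669Q, beside 0.960, 0.987 and 0.842 over all regions. The last is a shift of -0.25 on the log2 scale over all regions in E669Q, against which its ratios are to be read. The direction depended on the measure. By the authors' fold, 1 of 8 genes (CDC45) was higher with CPT in wild-type SLFN11, against 6 by pileup, and 6 of 7 in E669Q, against 4. By pileup, 48.5% of shared regions were higher with CPT in wild-type SLFN11 and 29.7% in E669Q. The median fold ratio was 0.810 in vector, 0.880 in wild-type SLFN11 and 1.2 in E669Q, beside 1.017, 0.869 and 1.06 over all regions. The lowest pileup ratio was that of MCM3 in vector, with 16.0 fragments per unit of depth with DMSO and 8.28 with CPT (ratio 0.517, 95% interval 0.201 to 1.24). MCM3 went to 1.18 (0.605 to 2.28) in wild-type SLFN11 and 0.922 (0.461 to 1.90) in E669Q. TOP1 gave 0.920 (0.275 to 3.07) in vector, 1.29 (0.473 to 3.43; 0.978 by fold) in wild-type SLFN11 and 1.05 (0.412 to 2.89) in E669Q.

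CDC45 was the only one of the 4 start sites listed in all 6 libraries whose scaled pileup was higher with CPT in 3 of 3 lines. This pattern was read from CDC45 itself, and the share of all regions with it was not computed. Line by line, 47.6%, 48.5% and 29.7% of shared regions were higher with CPT in vector, wild-type SLFN11 and E669Q. In vector the scaled CDC45 pileup was 11 with DMSO and 20.2 with CPT (ratio 1.84, 0.855 to 4.20). In wild-type SLFN11 it was 13.9 and 22.0 (1.58, 0.858 to 2.9), and in E669Q 13.5 and 14.4 (1.07, 0.582 to 2.02). The mean log2 ratio was 0.54 ± 0.40 (SD over 3 lines), with an exact two-sided sign-flip permutation p of 0.25, the smallest that 3 lines can give. Any gene with the same direction in all 3 lines gets this p, so it adds nothing to that count. The 3 lines differ in transgene and are not replicates of 1 condition. TOP1 was higher with CPT in 2 of 3 lines and WEE1 and MCM3 in 1 of 3, each with an exact permutation p of 0.75. The local background of CDC45 moved with its pileup, as given below. WEE1 gave ratios of 0.817 (0.274 to 2.39), 0.718 (0.303 to 1.58) and 1.27 (0.547 to 3.18) for vector, wild-type SLFN11 and E669Q in turn.

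**Figure D3:**
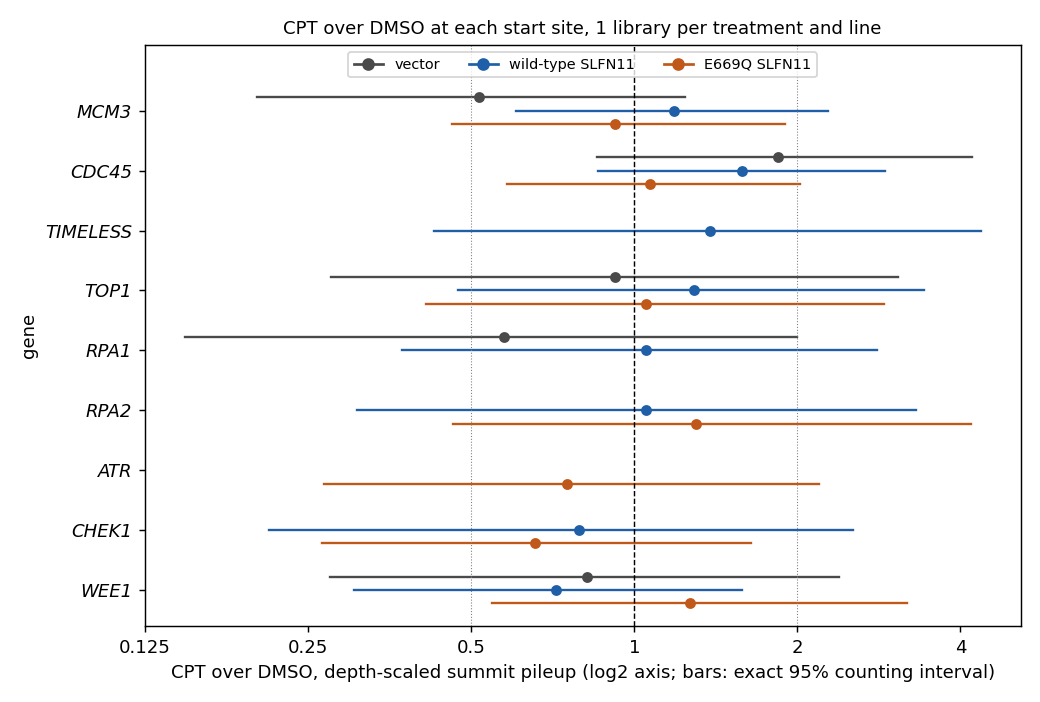
CPT over DMSO ratio of depth-scaled summit pileup (log2 axis) for each gene and line listed at both treatments, with exact 95% counting intervals, and dotted lines at 2-fold. Each bar crosses 1, and CDC45 lies right of 1 in the 3 lines. The CHEK1 intervals compared in wild-type SLFN11 did not overlap.

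Between lines, CHEK1 had an interval within 2 kb in each SLFN11 list and in neither vector list, in 3 separate places. With lists cut to equal length it was no longer listed in wild-type SLFN11 with DMSO or E669Q with CPT, and TIMELESS was no longer listed in wild-type SLFN11 with DMSO. With DMSO the wild-type SLFN11 list had CHEK1 and TIMELESS beyond the 7 of vector and lacked none, where 57.5% of all regions in either list were in wild-type SLFN11 alone and 6.16% in vector alone. E669Q had CHEK1 and lacked RPA1, where 46.2% of regions were in E669Q alone and 15.0% in vector alone. With CPT, at nearly equal depth, wild-type SLFN11 had CHEK1, RPA2 and TIMELESS beyond the 5 of vector and lacked none, where 27.8% of regions were in wild-type SLFN11 alone and 30.6% in vector alone. E669Q with CPT had ATR, CHEK1 and RPA2 and lacked RPA1, where 55.8% were in E669Q alone and 6.44% in vector alone.

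Between the SLFN11 lines, RPA1 and TIMELESS were in the wild-type lists alone at both treatments. With DMSO these were the 2 of 9 that differed within 2 kb, and by overlap CHEK1 differed too, with 3 in wild-type SLFN11 alone and 1 in E669Q alone. Of all regions, likewise counted by overlap, 38.2% were in wild-type SLFN11 alone and 13.6% in E669Q alone. With CPT ATR was in E669Q alone, where 57.3% of all regions were in E669Q alone and 5.87% in wild-type SLFN11 alone. These comparisons share libraries with each other and with those of CPT against DMSO.

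No start site was past 2-fold between lines in scaled pileup, and every 95% interval included 1. With DMSO the share of all regions past 2-fold was 4.13% for wild-type SLFN11 over vector, 6.70% for E669Q over vector and 4.68% for E669Q over wild-type SLFN11. With CPT it was 6.43%, 11.5% and 8.67% in the same order. The ratio nearest to 2-fold was MCM3 in wild-type SLFN11 over vector with CPT, 1.99 (0.850 to 5.04), with 18 and 9 fragments. WEE1 in E669Q over wild-type SLFN11 with DMSO was 0.528 (0.214 to 1.19). With CPT each of the 5 genes listed in both was higher in wild-type SLFN11 than in vector, from CDC45 at 1.09 (0.584 to 2.03) to MCM3, with a median of 1.28 beside 0.997 over all 3268 shared regions. Of those regions 43.2% were higher in wild-type SLFN11. All 5 ratios rest on the same 1 library per line. The CDC45 summits compared lay at -382 bp in vector and -157 bp in wild-type SLFN11. With the summits nearest to the start the CDC45 ratio was 1.33. Under the authors' fold CDC45 was 0.929 in that comparison, on the other side of 1.

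The start sites differed in the level of the 10 kb around them. The local background over the lowest of the library was 5.01 to 8.90 at CDC45, above 89.9% to 96.6% of the intervals of its lists. It was 3.00 to 4.27 at MCM3, 2.71 to 4.35 at WEE1, 1.86 to 3.45 at TOP1, 1.64 to 2.66 at CHEK1, 1.75 to 2.21 at ATR, 1.58 to 1.84 at RPA2 and 1.21 to 2.35 at RPA1. At TIMELESS it was 1.00 to 1.21, so that 8 and 7 fragments sufficed for a fold over 6. CDC45 and TIMELESS thus reached a like fold at unlike pileups. The CDC45 background was higher with CPT in each line, from 5.01 to 6.68 in vector, from 6.34 to 8.90 in wild-type SLFN11 and from 6.05 to 7.05 in E669Q. These are ratios of 1.33, 1.40 and 1.16, above 91.1%, 93.8% and 75.1% of the shared regions of each line. The fragments of a peak also count in its own 10 kb, and the part of this in the CDC45 ratios was not tested.

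**Figure D4:**
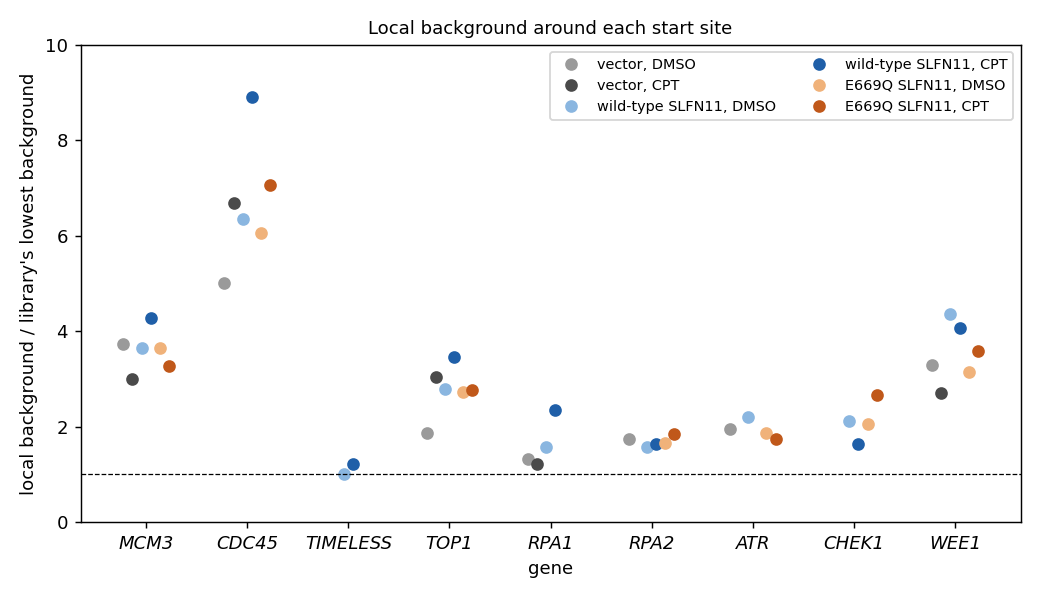
Local background at each start site divided by the lowest background of the library (dashed line at 1), 1 point per library. CDC45 lies at 5.01 to 8.90 in all 6 libraries, apart from the other genes, and TIMELESS lies at 1.00 to 1.21.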

How the data were processed

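The deposited files were 1 ATAC-seq peak list per library, in hg19. MACS2 2.1.2, Picard 2.9.2, SAMtools 1.8, Bowtie2 2.2.6 and Trimmomatic 0.39 appear in the submitters' processing notes, without roles or settings. How reads were shifted and duplicates treated, and the read totals, are not given in the sources used here. Deposited with every peak are the authors' score, their fold (a ratio at the summit over local background), the −log10 p-value, and the −log10 of q, whose lowest was 2.00 to 2.01.

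The members, their start sites and the lists were chosen with earlier results of these data known. Every member is named, and the rule for sequences was at most 6 members, those with an interval over the start in most libraries and those whose presence differed most. TOP1 was taken outside that rule, in place of CHEK1, whose intervals did not reach the given start. The start sites could not be checked against an hg19 annotation. Pileup and background were solved from fold and p with MACS2's formula and a pseudocount of 1, with a tolerance of 0.001 in −log10 p, which succeeded for 98.6% to 99.2% of list entries. Relative depth is the lowest background over the step of 1 fragment in 10 kb. The summit with the highest pileup within 2 kb was used. The pileup carried to another library was compared with the lowest pileup listed there at the highest relative background of the gene. Ratios carry exact conditional binomial 95% intervals, which compare libraries and cover counting error only. The scripts were tested on simulated data. Other replication genes and cell type markers were planned but not analysed here, for lack of hg19 positions. Calculations ran in scipy 1.17.1, pandas 2.3.3 and numpy 2.4.6 under Python 3.11.15, with plots by matplotlib 3.10.9.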

Additional observations from a re-analysis of the deposited data

How the results depend on the processing

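Counts of listed start sites did not move with the distance allowed (1 or 5 kb), and moved with the threshold and list length. Of 351 alternative values, 43 moved beyond the bound set for it. The stricter q threshold moved 23 of its values and left 10. All 64 values under the authors' fold counted as unmoved, also where a ratio changed side of 1, so the total does not reflect direction. No ratio was called, so none could reverse a call. By the authors' fold, 15 of 55 ratios lay on the other side of 1, 5 of them for CPT in wild-type SLFN11 (among them TOP1, from 1.29 to 0.978, RPA1, from 1.05 to 0.730, and TIMELESS, from 1.38 to 0.97).

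At −log10 q of at least 5, the listed start sites were 2 with DMSO and 1 with CPT in vector, 3 for wild-type SLFN11 with CPT and 3 for E669Q with DMSO. With CPT 0 were kept and 1 gained (CDC45) in vector, 3 kept and 6 lost in wild-type SLFN11, and 3 kept and 4 gained in E669Q. With DMSO, wild-type SLFN11 and vector shared 2, with 7 in wild-type SLFN11 alone. E669Q and vector shared 1, with 2 in E669Q alone. The SLFN11 lines shared 3, with 6 in the wild type alone. With CPT, 1 was shared by wild-type SLFN11 and vector and 1 by E669Q and vector, with 6 in E669Q alone and 0 in vector alone. The SLFN11 lines shared 2, with 5 in E669Q alone and 1 in the wild type alone. Shares of all regions were not computed at this threshold, and depth differed. Whether these counts are particular to these genes was thus not tested.

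With lists cut to the 5246 strongest intervals, wild-type SLFN11 with DMSO listed 5 and E669Q with DMSO 4. With CPT 4 were kept and 4 gained in wild-type SLFN11 (TOP1, CHEK1, RPA2 and TIMELESS), and 2 kept, 3 gained and 2 lost in E669Q. With DMSO 0 were in wild-type SLFN11 and not in vector and 2 the reverse, 3 were shared by E669Q and vector with 4 in vector alone, and 3 were shared by the SLFN11 lines with 1 in E669Q alone. With CPT 0 were in E669Q and not in the wild type. The absence of gained start sites with CPT, and the larger number listed with DMSO in wild-type SLFN11 than in vector, thus depended on list length. Shares of all regions were not computed for the cut lists, so whether these moves are particular to these genes was not tested.

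Where kept meant an overlap of at least 1 bp, CHEK1 moved, giving 1 gained and 2 lost with CPT in wild-type SLFN11, and 1 with DMSO and 2 with CPT in E669Q and not in the wild type. Scaled by the median pileup of regions in all 6 libraries, 1 gene was at 2-fold in vector with CPT (CDC45, 2.00) and 1 in wild-type SLFN11 over vector with CPT (MCM3, 2.00). Pileups of 5 to 32 fragments limit the ratios. No paired analysis was possible because each group is 1 library and replicate numbers pair nothing, apart from the sign-flip test that pairs CPT with DMSO within the 3 lines.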

Other observations

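Within 50 kb, the interval at the start was the only one at RPA1 and TIMELESS in each library that listed them, and E669Q had 0 intervals within 50 kb of RPA1 and of TIMELESS at either treatment. TOP1 likewise had 1 interval within 50 kb in each of the 6 libraries. Within 50 kb of WEE1 there were 2 to 4 intervals per library, of CDC45 3 or 4, and of ATR 1 to 4.

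Of the 5 genes listed at both treatments in vector, TOP1 had the highest CPT over DMSO ratio of local background, from 1.86 to 3.04 times the lowest of the library. This ratio of 1.63 was above 98.3% of the 3229 shared regions of that line, while the TOP1 pileup was 7 fragments at both treatments. In wild-type SLFN11 the ratio was 1.23, above 85.5% of shared regions, and in E669Q 1.01, above 51.9%. TOP1 was singled out here after its values were seen.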
